A study of Arabidopsis thaliana with 14 samples.

Results

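The chalazal pole of young Arabidopsis thaliana seeds was compared with the rest of the same tissue on 8 of the 14 arrays of the series. At the pole these were 2 arrays of chalazal endosperm and 2 of chalazal seed coat, and away from it 2 of peripheral endosperm and 2 of general seed coat. The arrays were chosen by the compartment named in their labels, and no measured value was used. The quantity described is the effect of the pole common to both tissues, that is, the mean difference between chalazal and other arrays with tissue held as a covariate. It was estimated for every non-control probe set of the ATH1 array that was bright enough to be tested, 16244 of 22746.

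Seeds of all 4 groups were of accession Ws-0, carried no stated treatment and held an embryo proper of 2 to 8 cells. The plants were 38 to 46 days old and grew at 20 °C in continuous light, and the siliques were 1.0 to 1.1 cm long. The tissue was fixed, embedded in paraffin, sectioned and freed by laser capture microdissection, and 2 to 5 ng of RNA per sample were amplified for the array. The labels name 2 biological replicates in each group but tie no region to a plant, so that p-values measure the spread between these samples. For the pole effect that spread also holds any difference between the tissues in the effect. A pole effect can thus fail to pass although replicates lie close together. The group called peripheral endosperm here has that name in its titles, while its source label calls it cellularized endosperm. The other 6 arrays of the series, of micropylar endosperm, embryo proper and whole seed, were used only to place the levels.

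The chalazal pole is the end of the seed at which the vascular strand of the mother plant stops. The chalazal seed coat is maternal tissue into which sugars, amino acids and minerals are unloaded. The chalazal endosperm, a multinucleate cyst that arises from fertilization of the central cell, faces it. The peripheral endosperm lines the rest of the central cell and the general seed coat consists of the integuments around it, which in young seeds make flavonoids. Endosperm and seed coat thus differ in origin and genome, while their chalazal parts adjoin.

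Array medians lay between 110.5 and 155 on the linear signal scale on these 8 arrays. The replicates correlated across probe sets at 0.926 in the peripheral endosperm, 0.913 and 0.910 in chalazal and general seed coat, and 0.854 in the chalazal endosperm, whose replicate SD of 0.78 on the log2 scale was the largest of the 4 groups. Levels of marker genes were checked against the labels. The 5 of 7 listed markers of the chalazal endosperm that had a probe set summed to between 161329 and 190474 in that compartment, 8449.2 to 8449.7 in the peripheral endosperm, and 1835 to 2828 in chalazal and 509.7 to 521 in general seed coat. The 4 markers of the chalazal seed coat summed to between 30622 and 31316 there, 277 to 317 in the chalazal endosperm and 635 to 1184 in the general seed coat. YUC6, 1 of these 4, had 1719 and 839 in chalazal and 555 and 883 in general seed coat, ranges that overlap. The 3 flavonoid and integument genes among 12 listed seed coat markers (DFR and BAN, enzymes of flavonoid synthesis, and INO, a regulator of the outer integument) summed to between 36143 and 36885 in the general and 16386 to 18207 in the chalazal seed coat. They summed to between 4461 and 4853 in the chalazal and 1571 to 3710 in the peripheral endosperm. Most of each sum was DFR. INO had 523 and 763 in general and 90.9 and 44.5 in chalazal seed coat, no higher than its 99.1 and 100.8 in chalazal endosperm. Of 10 listed phloem markers only SWEET11 had a probe set, at 18.3 to 44.3 in the chalazal seed coat, and none of 12 xylem markers had one, so that vascular cells could not be checked. The marker lists include genes named from earlier results of these arrays, which are not independent of them.

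At an adjusted p under 0.05 (limma, Benjamini-Hochberg over all tested probe sets) and a difference of at least 2-fold, 642 probe sets (3.95%) were higher at the chalazal pole as an effect common to both tissues and 544 (3.35%) were lower. In such bulk samples more cells of a type and more RNA per cell cannot be told apart. The increases were the larger changes. At least 16-fold differences were found for 99 of the higher and 4 of the lower probe sets, and at least 4-fold differences for 430 and 279. The median level of the 642 was 1687 in the chalazal endosperm and 987 in the chalazal seed coat, against 84.4 in the peripheral endosperm and 122 in the general seed coat. The 544 had medians of 242 and 248 at the pole, against 1951 and 1006 away from it. In 592 of the 642 both chalazal arrays lay above both others in each tissue, an order held by 10.3% of all tested probe sets, and in 525 of the 544 they lay below, again against 10.3%. The same values called these probe sets, so this order follows largely from the call and is no separate support. Of the 642, 374 had 1 gene in the platform annotation and only 47 of their 373 genes carried a name beyond the locus number. The counts depended on the arrays. They were 225 higher and 121 lower without the first array of peripheral endosperm, 191 and 101 without the second, 285 and 243 without the first array of chalazal endosperm and 399 and 299 without the second. Without the first array of chalazal seed coat they were 400 and 350, and without the second array of general seed coat 466 and 351.

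The common effect joined tissues that differed in how much they changed. In the endosperm alone 1957 probe sets (12%) were higher at the pole and 2610 (16.1%) lower, while in the seed coat alone 712 (4.38%) were higher and 676 (4.16%) lower. These comparisons share no arrays. Called higher in each of them were 210 probe sets (1.29%), which are 10.7% of the endosperm list and 29.5% of the seed coat list, and called lower in each were 131 (0.806%), which are 5.02% and 19.4%. Opposite calls were fewer, with 60 probe sets (0.369%) higher at the pole in endosperm and lower in seed coat and 27 (0.166%) the other way. Across all tested probe sets the 2 differences correlated at 0.211, a description over probe sets that share the array and its scaling. The number called higher in each tissue was 109 to 134 when 1 array of either seed coat group was left out, 147 and 150 without an array of peripheral endosperm, and 245 and 271 without an array of chalazal endosperm. The number called lower in each tissue was 40 to 61 without 1 array of any group but the chalazal endosperm, and 223 and 169 without the first and the second array of that group. Without 1 array of its own groups the seed coat comparison gave 360 to 397 higher and 285 to 373 lower, and without the first array of peripheral endosperm the endosperm comparison gave 1149 and 1352, and without the second 1267 and 1449. Opposite calls ranged from 22 to 74 and from 6 to 51 without 1 array.

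**Figure D1:**
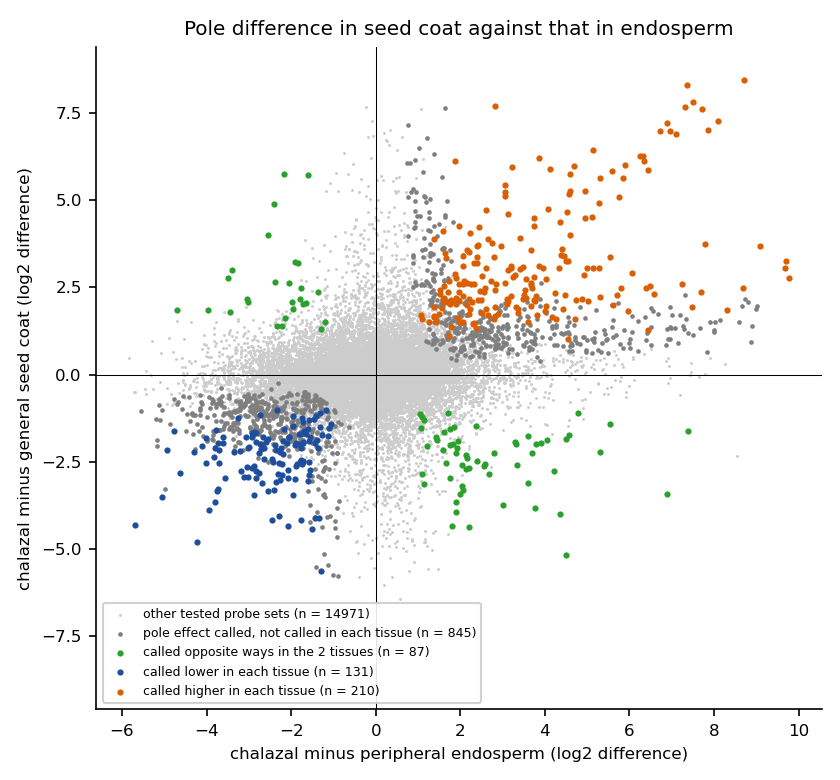
Each point is 1 of the 16244 tested probe sets, with its chalazal minus peripheral endosperm difference on the x axis and its chalazal minus general seed coat difference on the y axis, both in log2 units. The 210 probe sets called higher in each tissue lie at the upper right, where AT3G10590 is at 8.72 and 8.44. The 131 called lower in each tissue lie at the lower left, where AT5G45650 is at -5.69 and -4.31.

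The largest increases were found for genes with high signal in both chalazal compartments and little elsewhere. Their loci have no name or function in the annotation used here. AT3G10590 had signals of 30983 and 23835 in chalazal and 8.74 and 57.6 in peripheral endosperm, and 13879 and 13969.6 in chalazal and 4.66 and 3.78 in general seed coat. Both chalazal compartments were thus bright and both others near the floor of the array. The pole effect was 8.58 (SE 0.36, adjusted p = 2.77e-07) on the log2(signal + 35.9) scale, 8.72 in the endosperm and 8.44 in the seed coat. Where a level lies under the added value of 35.9, as here, the size of the difference depends on it.

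AT1G24000 and AT1G20680 had replicates close to each other at the pole. AT1G24000 gave 23849.5 and 23258 in chalazal and 129 and 143 in peripheral endosperm, and 16138 and 17574 in chalazal and 133 and 83.7 in general seed coat. AT1G20680 gave 27587 and 27856 in chalazal and 215 and 240.5 in peripheral endosperm, and 13154 and 14909.7 in chalazal and 68.3 and 79.1 in general seed coat. Their pole effects were 6.999 (SE 0.29, adjusted p = 2.77e-07) and 6.86 (SE 0.28, adjusted p = 2.77e-07), and the difference between the tissues in that effect was 0.21 (SE 0.50) and -0.28 (SE 0.48), less than its standard error. AT1G12180 reached 69151 and 56163 in the chalazal endosperm and 41639 and 48137 in the chalazal seed coat, against at most 977 on the other 4 arrays, and its pole effect was 7.67. AT3G57250 (7.69), AT3G13630 (7.67) and AT4G22400 (7.44) had the same form. AT4G22050 (7.84) was the brighter in the chalazal seed coat, at 26218 and 21148 against 14905 and 10072 in the chalazal endosperm. AT1G51000 (6.30) had 10419 and 6165 and 8676 and 9898, but its probe set is of a class that can match other transcripts.

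In these 9 genes the level in the chalazal seed coat was between 47.6% and 190% of that in the chalazal endosperm, and none had a called difference between the tissues. All 9 kept their calls under each of 20 alternative fits, with adjusted p-values of at most 0.00214.

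**Figure D2:**
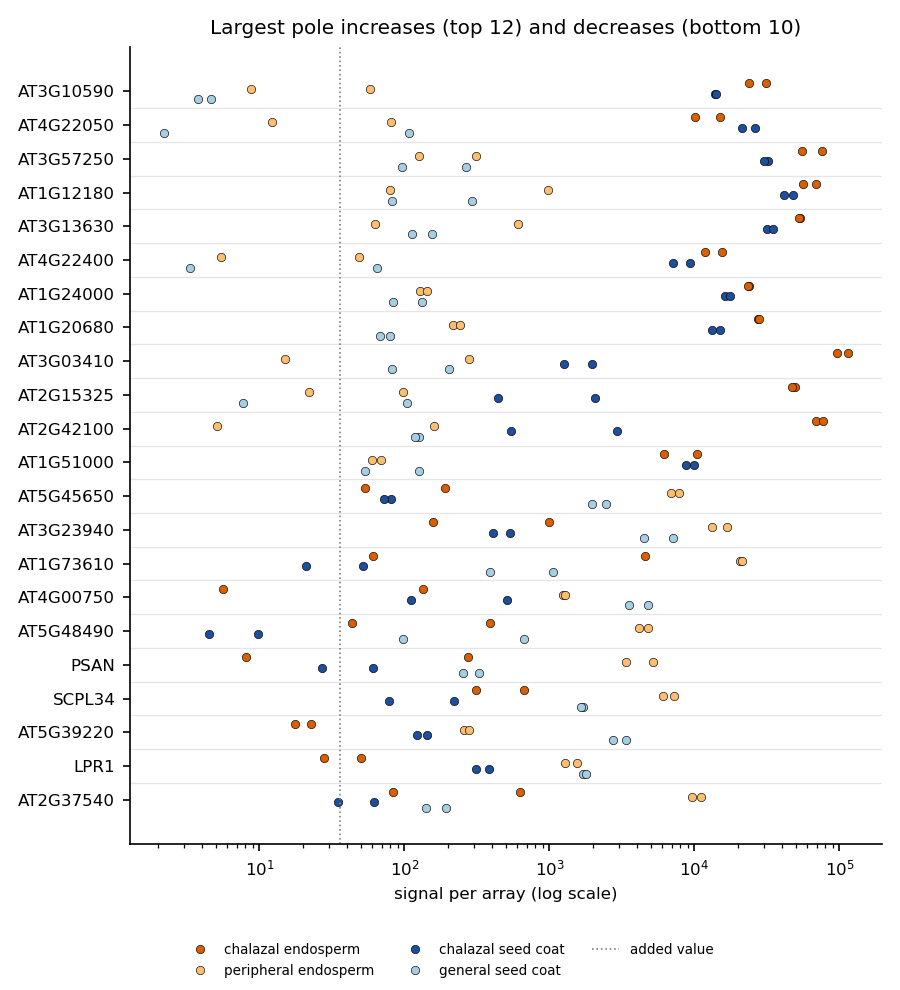
Signal on each of the 8 arrays, on a log axis, for the 12 largest increases and the 10 largest decreases of the pole effect among called genes whose arrays do not overlap in either tissue. Each dot is 1 array, coloured by group, and the dotted line marks the value added before taking logs. For AT3G10590 the 4 chalazal arrays lie between 13879 and 30983 and the other 4 at or under 57.6.

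The remaining 3 of the 12 largest increases belonged mainly to the endosperm. AT3G03410 had signals of 96472 and 114156 in chalazal and 278 and 15.1 in peripheral endosperm, and 1961 and 1263 in chalazal and 81.5 and 203 in general seed coat. AT2G15325 reached 49198 and 47402 in the chalazal endosperm and 2062 and 442 in the chalazal seed coat. AT2G42100 reached 69344 and 76549.9 and 2909.6 and 539. All 3 were called in each tissue, but the difference between the tissues was called as well, at 6.43 (SE 0.94, adjusted p = 0.000815) for AT3G03410, 5.41 for AT2G15325 and 6.63 for AT2G42100. Their level in the chalazal seed coat was 1.53%, 2.59% and 2.36% of that in the adjoining chalazal endosperm.

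Of the tested probe sets, 83 were at least 64-fold higher at the pole in endosperm with a called difference between the tissues. Their median level in the chalazal seed coat was 1.53% of that in the chalazal endosperm (quartiles 1.14% and 1.91%). The called difference left out genes bright in both chalazal compartments, such as AT3G10590, so a low share follows largely from this choice. In 51 of the 83 both arrays of chalazal seed coat lay above both of general seed coat, against 26.7% of all tested probe sets. Called higher in the seed coat were 15, against 4.38%. The choice of the 83 used the same seed coat arrays, so nothing is read from either share. In the pole effect, which uses the arrays that chose them, 62 were called, against 3.95%. In the other direction, 26 probe sets were at least 64-fold higher at the pole in seed coat, again without genes such as AT3G10590. They had a median of 1.15% of that level in the chalazal endosperm (quartiles 0.457% and 1.99%). Both arrays of chalazal endosperm lay above both of peripheral endosperm in 9 of the 26. Called higher in the endosperm were 2, against 12% of all tested probe sets. In the pole effect 10 were called, against 3.95%. These counts also use the arrays that chose the 26. The part of RNA from the adjoining compartment in these values was not tested. Of the 210 probe sets called higher in each tissue, 25 had a seed coat level at the pole under 5% of the endosperm level and 5 had one of at least 2000%, while 87 lay between 50% and 200%. When probe sets over 20-fold brighter in one chalazal compartment than in the other were left out, 494 higher and 506 lower calls were left. When those with a called difference between the tissues were left out, 418 and 429 were left. Both of these restrictions were chosen after seeing the data.

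The decreases were smaller and were led by AT5G45650, which had signals of 192 and 53.4 in chalazal and 6877 and 7815 in peripheral endosperm, and 81.3 and 72.3 in chalazal and 1967 and 2453 in general seed coat. Its pole effect was -5.0005 (SE 0.44, adjusted p = 0.000125), and it was lower in each tissue. AT3G23940 (-4.28), AT4G00750 (-3.91) and AT5G39220 (-3.31) were also called lower in each tissue. SCPL34, a serine carboxypeptidase-like protein, had 671 and 311 in chalazal and 7230.2 and 6054 in peripheral endosperm, and 218 and 77.97 in chalazal and 1701 and 1645 in general seed coat. The pole effect of SCPL34 was -3.54 (SE 0.40, adjusted p = 0.000696), with -3.75 in the endosperm and -3.33 in the seed coat. LPR1, a multicopper oxidase known from the response of roots to low phosphate, had 49.9 and 27.8 in chalazal and 1289 and 1550.0 in peripheral endosperm, and 384 and 312 in chalazal and 1706 and 1797 in general seed coat. Its pole effect was -3.26 (SE 0.47, adjusted p = 0.00405), and the decrease was larger in the endosperm, with a difference between the tissues of -2.07 (SE 0.67, adjusted p = 0.0499).

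AT1G73610 (-4.13), AT5G48490 (-3.73), PSAN (-3.61) and AT2G37540 (-3.24) completed the 10 largest decreases. AT1G73610 rested on arrays that differed widely, 4535 and 60.3 in the chalazal against 20619 and 21242 in the peripheral endosperm. Of these 4, AT5G48490 was called in each tissue, with an adjusted p of 0.0495 in the seed coat, and the other 3 in the endosperm alone. Calls were lost for AT1G73610 without the first array of chalazal seed coat, the second of general seed coat or either of peripheral endosperm (adjusted p up to 0.0926). They were lost for AT5G48490 without the second array of peripheral endosperm (0.0519), for PSAN without either of that group (0.0709) and for AT2G37540 without either of that group or the first of chalazal endosperm (0.112).

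The arrays left out of the fit placed these levels. Of the 210 probe sets higher in each tissue, 143 had all 4 chalazal arrays above all 4 arrays of micropylar endosperm and embryo proper, an order held by 6.55% of all tested probe sets. The median level of the 210 was 2047 in the chalazal endosperm, 1573 in the chalazal part of the seed coat and 627 in whole seeds, and between 88.1 and 183 in the other 4 compartments. In 136 of the 210 both whole-seed arrays lay above all arrays of peripheral endosperm and general seed coat, against 10.4% of all tested probe sets. High chalazal and low other levels chose these members, so nothing is read from either share. Whole-seed signal for AT1G12180 was 13434 and 18125 and for AT3G10590 3067 and 2741. The 131 probe sets lower in each tissue had all chalazal arrays below those of micropylar endosperm and embryo proper in 48, against 7.34% of all tested probe sets, and the medians of the 131 there were 863 and 800.1. Low chalazal levels chose the 131, so nothing is read from the count of 48.

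**Figure D3:**
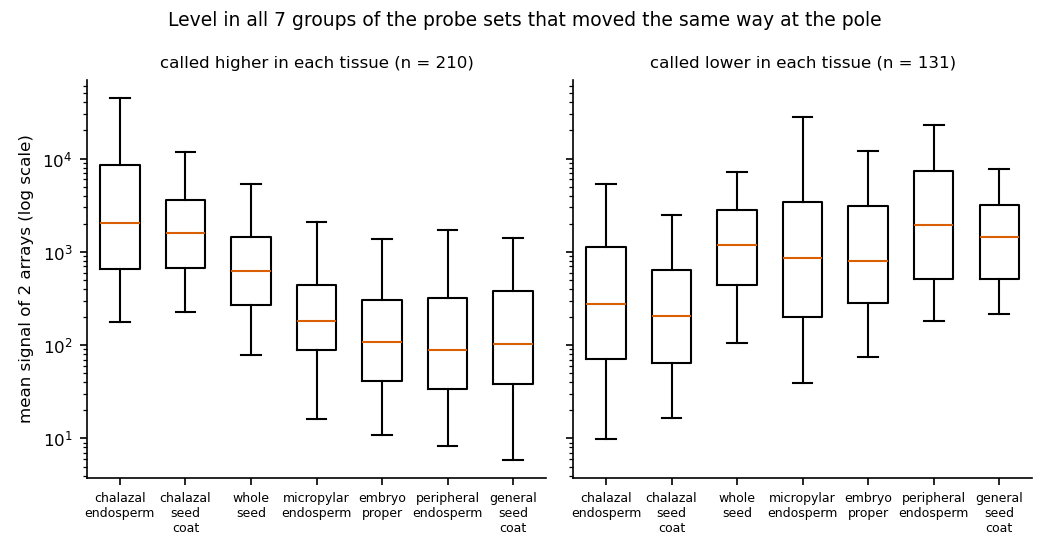
Boxes show the mean signal of the 2 arrays of a group, on a log axis, over the 210 probe sets called higher (left) and the 131 called lower (right) at the pole in each tissue, in all 7 groups of the series. The line is the median, the box the quartiles and the whiskers the 5th and 95th percentiles. On the left the medians are 2047 and 1573 in the chalazal compartments, 627 in the whole seed and at most 183 elsewhere.

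Of the genes that carry a name, 15 were higher and 12 lower at the pole in each tissue. Among the 15 were 7 members of the gene lists described below. The other 8 were added after their values were seen, to complete the set. MT1C, a metallothionein (a small cysteine-rich metal-binding protein), had 1504 and 333 in chalazal and 19.9 and 109.5 in peripheral endosperm, and 2616 and 787 in chalazal and 5.10 and 7.95 in general seed coat. The chalazal arrays of MT1C spread widely but all lay above the others of the fit, and its pole effect was 4.09 (SE 0.66, adjusted p = 0.00724). Outside the fit MT1C had 9423 and 5801 in whole seeds, above every chalazal array, and 1598 and 592 in micropylar endosperm. TIL, a temperature-induced lipocalin, had 4560.5 and 4729 in chalazal and 1655 and 1338 in peripheral endosperm, and 1669 and 1649 in chalazal and 400.2 and 324 in general seed coat. The pole effect of TIL was 1.86 (SE 0.30, adjusted p = 0.00726), and the effect differed between the tissues by -0.48 (SE 0.52). EMS1, a receptor kinase known from anther development, was mainly a seed coat gene, with 4733 and 3735 in the chalazal and 1229 and 949 in the general seed coat against at most 164 in endosperm, and its pole effect was 1.65. CHR23, a chromatin remodelling factor, had a pole effect of 1.91, SGP1, a small G protein, of 3.04, MAP1B, a methionine aminopeptidase, of 1.51, and CYTOSLEEPER of 2.56. AGL33, a MADS-box factor, had 11373 and 12672 in the chalazal endosperm and 359.7 and 90.8 in the chalazal seed coat, and its pole effect of 5.03 differed between the tissues by 5.34. The call for EMS1 was lost without any 1 array except the second of chalazal endosperm (adjusted p up to 0.0761), as was that for MAP1B (up to 0.0879). Those for AGL33 and CHR23 were lost without the second array of peripheral endosperm (up to 0.0512).

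Genes of autophagy, by which cells enclose part of their cytoplasm in a membrane and deliver it to the vacuole, were higher at the pole. All 11 listed genes were tested and had a positive pole effect, and 5 of the 11 rose and 0 fell, with a median of 1.61. Over all 9085 tested genes 4404 had a positive effect, 371 (4.08%) rose and 274 (3.02%) fell, with a median of -0.03. The pole effect counts of the lists below stand beside these shares. ATG8 is the ubiquitin-like protein that is attached to the membrane. ATG8D had 8752 and 10658 in chalazal and 994 and 1213 in peripheral endosperm, and 2260.2 and 2898 in chalazal and 981 and 357 in general seed coat. The chalazal arrays lay above the others in each tissue, and its pole effect was 2.57 (SE 0.38, adjusted p = 0.00458). APG8A (ATG8A) had 5048 and 4561 in chalazal and 488 and 765 in peripheral endosperm, and 2281 and 3579 in chalazal and 1048 and 661 in general seed coat. The chalazal arrays again lay above the others, with a pole effect of 2.32 (SE 0.37, adjusted p = 0.0067). ATG8D and APG8A were also called in each tissue.

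ATG8G (2.39), ATG8B (2.04) and AT5G66930, listed as ATG101 and part of the kinase complex that starts autophagy (2.63, SE 0.48, adjusted p = 0.0116), passed in the pole effect and in the endosperm but not in the seed coat. There the difference for AT5G66930 was 1.65 (adjusted p = 0.0523) and that for ATG8G 1.30 (0.0786). For ATG8G the tissues differed, by 2.16 (SE 0.60, adjusted p = 0.0262). In the endosperm 7 of the 11 rose, ATG8C by 2.23 and ATG8E by 1.77 among them, and in the seed coat 2, against 1107 (12.2%) and 382 (4.2%) of all 9085 tested genes. ATG3, the enzyme that attaches ATG8, had a pole effect of 0.18 (adjusted p = 0.763). The count of 5 was 3 without either array of peripheral endosperm and 4 without either of chalazal endosperm.

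**Figure D4:**
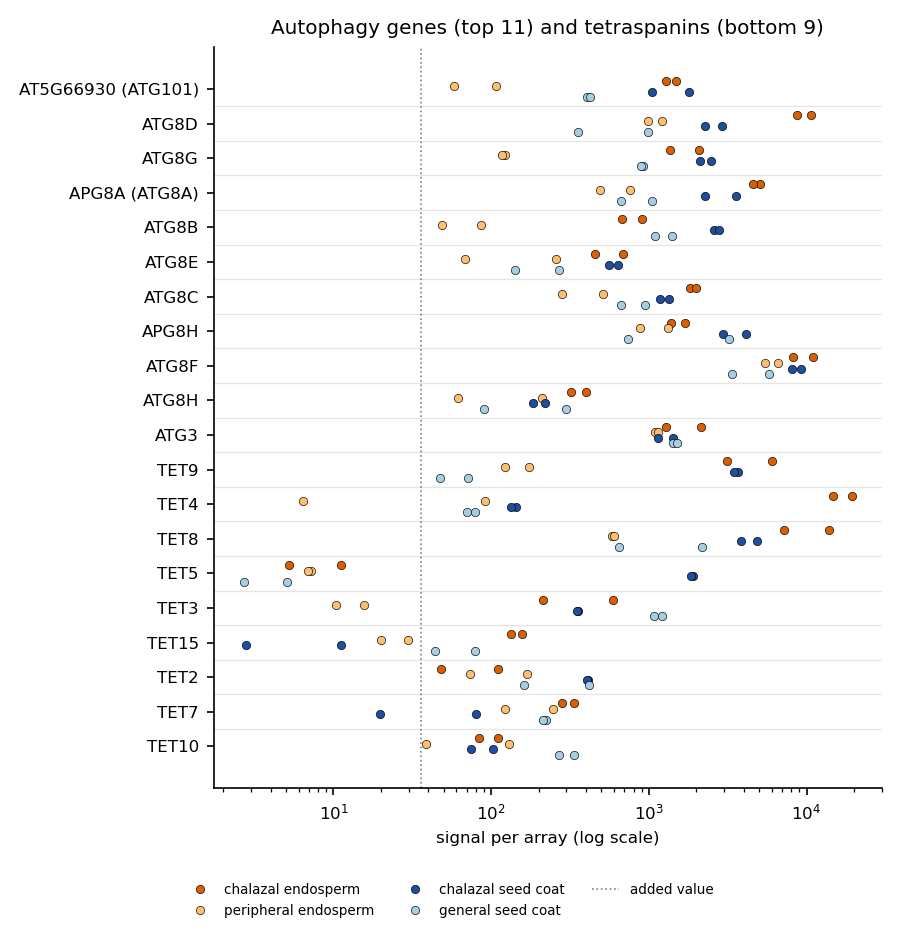
Signal on each of the 8 arrays, on a log axis, of the 11 autophagy genes and 9 tested tetraspanins, ordered by pole effect within each list. Dots are arrays coloured by group and the dotted line is the value added before taking logs. For ATG8D the chalazal endosperm arrays lie at 8752 and 10658 and the peripheral ones at 994 and 1213.

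Tetraspanins are membrane proteins that cluster other proteins into domains and, for TET8, mark vesicles that plant cells release. Of 9 tested members 3 rose at the pole and 0 fell, against 4.08% and 3.02% of all tested genes. TET9 had 3145 and 6004 in chalazal and 122 and 174 in peripheral endosperm, and 3659.7 and 3489.9 in chalazal and 47.1 and 71.7 in general seed coat. All 4 chalazal arrays of TET9 lay between 3145 and 6004 and the other 4 at or under 174, with a pole effect of 4.92 (SE 0.38, adjusted p = 3.54e-05). TET8 had 7229 and 13934 in chalazal and 586 and 603 in peripheral endosperm, and 3862 and 4854 in chalazal and 648 and 2159 in general seed coat. The chalazal arrays of TET8 were the higher in each tissue, its pole effect was 2.92 (SE 0.51, adjusted p = 0.00931), and it was larger in the endosperm by 2.17 (SE 0.69, adjusted p = 0.0487).

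TET4 and TET5 were each bright in 1 chalazal compartment. TET4 had 14765 and 19318 in the chalazal endosperm and at most 143 on the other 6 arrays, and although its pole effect passed (4.25, SE 1.16, adjusted p = 0.0485), that call was lost in 10 of 20 alternative fits, among them those without either array of chalazal or peripheral endosperm (adjusted p up to 0.138). TET5 had 1903 and 1855 in the chalazal seed coat and at most 11.1 elsewhere among the 8 arrays, with a seed coat difference of 5.59 (SE 0.50, adjusted p = 1.27e-05). TET3 (3.02) and TET15 (1.57) rose in the endosperm alone. TET2, TET7 and TET10 had pole effects of 0.07, -0.48 and -0.60, and none passed in either tissue.

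Transport genes differed by tissue. SWEET proteins move sugars out of cells or organelles. Of 8 tested SWEET genes 2 rose in the pole effect, against 4.08% of all tested genes, and both did so through the seed coat. SWEET10 had 23.7 and 104 in chalazal and 3.98 and 3.19 in peripheral endosperm, and 3778 and 6898 in chalazal and 10.9 and 9.79 in general seed coat. Its seed coat difference was 6.80 (SE 0.60, adjusted p = 1.22e-05), while that in the endosperm, between levels of at most 104, was 1.21 (adjusted p = 0.151). SWEET4 had 407 and 58.04 in chalazal and 68.8 and 8.68 in peripheral endosperm, and 2708 and 2850.2 in chalazal and 44.6 and 1.67 in general seed coat. The seed coat difference of SWEET4 was 5.68 (SE 0.75, adjusted p = 0.000283). Their pole effects were 4.003 (SE 0.94, adjusted p = 0.0312) and 3.63 (SE 0.83, adjusted p = 0.0284), and both calls were lost without any 1 array of seed coat or the second array of peripheral endosperm (adjusted p up to 0.0760), that of SWEET4 also without the first array of chalazal endosperm.

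SWEET1 fell in the seed coat, with a difference of -3.80, and had an endosperm difference of 1.04 (adjusted p = 0.213). SWEET8 had 4843 and 6317 in the chalazal and 6163 and 6633 in the peripheral part, ranges that overlap. SWEET2, SWEET6, SWEET7 and SWEET14 had pole effects between -0.40 and 0.44, none called. TMT1, which carries monosaccharides into the vacuole, was 1 of 4 tested genes of sugar transport and sucrose synthesis and fell at the pole, with an effect of -2.13 (SE 0.48, adjusted p = 0.0265), a call lost (adjusted p up to 0.0785) under 8 of 20 alternatives, among them each fit without 1 array except that without the second array of chalazal endosperm. MTP11, a manganese transporter and 1 of 6 tested genes of cation and metal transport, fell, with an effect of -1.68 (SE 0.45, adjusted p = 0.0462), and lost its call in 11 of 20 (up to 0.152), among them each fit without 1 array except that without the second array of chalazal seed coat. Of 4 nitrate and peptide transporters 0 passed in the pole effect.

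RR22, a response regulator of cytokinin signalling, marked the chalazal seed coat. It had 240.4 and 27.3 in chalazal and 226 and 39.4 in peripheral endosperm, and 17472 and 16569.7 in chalazal and 17.1 and 190.1 in general seed coat. The seed coat difference of RR22 was 7.28 (SE 0.82, adjusted p = 8.03e-05) and the endosperm difference -0.09, so that its pole effect of 3.60 did not pass (adjusted p = 0.103). It passed with all 14 arrays, with group means and without the second array of chalazal endosperm (adjusted p down to 5.05e-05). The other tested cytokinin genes were response regulators of the endosperm. RR19 had 2808 and 2843 in the chalazal and 691 and 1045 in the peripheral endosperm, a difference of 1.69 (adjusted p = 0.0687). RR23 had 1519 and 1946 and 2423 and 2249, a difference of -0.43 (adjusted p = 0.574). Of 11 auxin and 4 gibberellin genes 0 passed in the pole effect.

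Secreted proteins rose and fell. SBT4.13, a subtilisin-like protease, was the only one of 8 subtilases called in the pole effect. It had 30869 and 42289 in chalazal and 3.35 and 7.56 in peripheral endosperm, and 278 and 218 in chalazal and 7.10 and 3.82 in general seed coat. The pole effect was 6.27 (SE 1.11, adjusted p = 0.0103) and the tissues differed by 7.002 (SE 0.72, adjusted p = 0.000102), with the seed coat level at the pole far under that of the endosperm. RALFL28, a RALF signalling peptide, had 25988 and 25089.9 in chalazal and 264 and 278 in peripheral endosperm, and 293 and 410.3 in chalazal and 6.39 and 75.2 in general seed coat. It rose by 4.43 (SE 0.71, adjusted p = 0.0067) and in each tissue. LCR24, a cysteine-rich peptide, had 8171 and 5154 in chalazal and 39935 and 36563 in peripheral endosperm, and 87.8 and 241 in chalazal and 462 and 868 in general seed coat. It fell in each tissue, and its pole effect was -2.20 (SE 0.37, adjusted p = 0.0078). LCR72, another cysteine-rich peptide, rose by 3.28 through the endosperm, where it had 1756 and 2089.7 against 5.25 and 14.8, a call lost without any 1 array of endosperm (adjusted p up to 0.0958). In all 2 of 20 secreted peptide genes rose and 1 fell, against 4.08% and 3.02% of all tested genes.

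Among 25 other proteases 1 rose and 3 fell, against 4.08% and 3.02% of all tested genes. BETA-VPE, a vacuolar processing enzyme known from seeds, rose by 2.52 (SE 0.61, adjusted p = 0.0337) through the seed coat, with 1773 and 1313 in the chalazal and 76.1 and 59.9 in the general part. The other 3 were serine carboxypeptidase-like genes, SCPL34 given above, scpl26 (-2.71, SE 0.49, adjusted p = 0.0113), which fell in each tissue, and scpl42 (-2.03). The call for BETA-VPE was lost without any 1 seed coat array or the first array of peripheral endosperm (adjusted p up to 0.0893). That for scpl42 was lost without the first array of either chalazal seed coat or peripheral endosperm or the second array of any group (up to 0.115).

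Enzymes and proteins of the cell wall had few common changes. Of 12 expansins, which loosen walls, 2 rose. EXLA3 had 214 and 257 in chalazal and 6.57 and 10.03 in peripheral endosperm, and 426 and 322 in chalazal and 9.81 and 16.7 in general seed coat. Its levels were low but apart in each tissue, with a pole effect of 2.83 (SE 0.39, adjusted p = 0.00284). EXPA4 rose by 2.59 (SE 0.67, adjusted p = 0.0413) through the seed coat, where it had 575 and 1158 against 8.82 and 9.83, and the call was lost in 10 of 20 alternative fits, among them each fit without 1 array except that without the first array of chalazal endosperm (up to 0.0960). Of 13 XTH and endoglucanase genes 2 rose, the endoglucanases GH9B17 (3.52, SE 0.67, adjusted p = 0.0149) and GH9B11 (3.11, SE 0.60, adjusted p = 0.0159), which reached 39374 and 41168 and 23998 and 35648 in the chalazal endosperm. Their seed coat differences of 1.85 and 1.66 did not pass (adjusted p = 0.0609 and 0.0728), and both calls in the pole effect were lost without the first array of chalazal endosperm or either of peripheral endosperm (up to 0.0630).

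Of 18 TBL genes, a family known for acetylating wall polymers, TBL43 rose (4.22, with 11552 and 14701 in the chalazal and 39.03 and 239 in the peripheral endosperm) and TBL26 fell (-1.81). Among all tested genes 4.08% rose and 3.02% fell. The call for TBL43 was lost without the first array of chalazal or the second of peripheral endosperm (adjusted p up to 0.0661), and that for TBL26 without any 1 array of seed coat or peripheral endosperm (up to 0.0687). Of 12 beta-glucosidases, BGLU40 (2.54), BGLU33 (2.55) and BGLU25 (1.87) rose and BGLU15 (-1.44) fell. BGLU15 fell in each tissue, from 9069 and 10256 to 5272 and 3619 in the endosperm and from 2596 and 3213 to 664 and 1039 in the seed coat, and lost its call without the second array of peripheral endosperm or without a variance trend (up to 0.0665). The call for BGLU33 was lost in 14 of 20 alternative fits (up to 0.103), and BGLU40 and BGLU25 lost theirs without either array of peripheral endosperm or the first of chalazal endosperm (up to 0.0821), BGLU25 also without the first array of general seed coat.

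Type I MADS-box factors, many of which act in the endosperm, were listed by name, so members with only a locus number can be missing. The counts here are of the list, which had few calls in the pole effect. Of 15 tested members 0 rose in the pole effect and 1, AGL26, fell (-2.03, SE 0.49, adjusted p = 0.0341), a call lost in 8 of 20 alternative fits, among them each fit without 1 array except those without the second array of either seed coat group (up to 0.108). AGL91 and AGL41 passed as higher and AGL46 and AGL29 as lower with all 14 arrays and with group means. Within the endosperm 2 of the 15 rose and 5 fell, against 12.2% and 15% of all tested genes. AGL41 had 2149.6 and 3585 in the chalazal and 76.1 and 66.7 in the peripheral endosperm, a difference of 4.71 (SE 0.57, adjusted p = 5.66e-05). AGL91 had 1521 and 4836 and 169 and 171, a difference of 3.74 (SE 0.61, adjusted p = 0.000539). The 5 that fell there were AGL46 (-3.40), AGL29 (-3.03), AGL26 (-2.62), AGL82 (-1.64) and AGL28 (-1.33). In the seed coat 0 of the 15 passed. AGL62, a repressor of endosperm cellularization, had 5852 and 6469 in the chalazal and 3678 and 5237 in the peripheral endosperm and at most 142 in the seed coat, and its pole effect was 0.27 (adjusted p = 0.687). AGL23, AGL48, AGL57, AGL59, AGL80, AGL87 and AGL96 had pole effects between -1.05 and 1.04 and passed in neither tissue.

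Of 6 tested endosperm regulators MPC, imprinted and expressed maternally, fell. It had 396 and 348 in chalazal and 4653 and 5211 in peripheral endosperm, and 7.41 and 5.94 in chalazal and 101 and 164 in general seed coat. The pole effect of MPC was -2.78 (SE 0.45, adjusted p = 0.00726), and it passed in each tissue, although both seed coat levels were low. IKU1, which promotes endosperm growth, had 1005 and 2548 in the chalazal and 1312 and 1363 in the peripheral endosperm, ranges that overlap. Of 33 transcription factors of other families HAT2, a homeodomain factor that responds to auxin, rose. HAT2 had 7653 and 7009.5 in the chalazal seed coat and at most 179 on the other 6 arrays, and the call of its pole effect (3.44, SE 0.94, adjusted p = 0.0498) was lost in 14 of 20 alternative fits (up to 0.118). The chalazal endosperm markers AT4G36590 and AT3G05860 had pole effects of 1.59 (SE 0.33, adjusted p = 0.0201) and 1.64 (SE 0.55, adjusted p = 0.0915), the first called and lost without the first array of chalazal endosperm or either of peripheral endosperm (up to 0.0735). AT5G26630 had 0.31. These 3 markers, which are outside the list of type I MADS-box factors, rose within the endosperm, by 1.81, 2.90 and 1.62. The general endosperm marker AT2G02515 fell, with an effect of -2.16 (SE 0.38, adjusted p = 0.0103).

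Genes of photosynthesis that passed were lower at the pole, most of them within the endosperm. Of 24 tested nuclear genes 0 rose and 7 fell, and all 24 had a negative pole effect, with a median of -1.39. In the endosperm 20 fell, against 15% of all tested genes, and in the seed coat 1, against 3.59%. The medians were -2.60 and -0.31, against -0.04 and 0.04 over all tested genes, while 10 of the 24 differed between the tissues. PSAN, a subunit of photosystem I, had 273 and 8.08 in chalazal and 5180.3 and 3381 in peripheral endosperm, and 61.1 and 27.2 in chalazal and 325 and 252 in general seed coat. The peripheral endosperm stood far above the other 3 groups. Its endosperm difference was -5.18 (SE 0.76, adjusted p = 0.000256) and its seed coat difference -2.05 (SE 0.76, adjusted p = 0.13). PSAE-1, another subunit of photosystem I, had 1637 and 1057 in the chalazal and 9283 and 11060.3 in the peripheral endosperm, with a pole effect of -2.01 (SE 0.44, adjusted p = 0.0241). LHCB4.2, an antenna protein of photosystem II, had a pole effect of -2.65, and LIL3:2, needed for chlorophyll synthesis, of -1.78. PRK, an enzyme of carbon fixation, fell in the seed coat (-2.24) and was the only one of the 24 to do so. The count of 7 became 0 without either array of peripheral endosperm and 1 and 3 without the first and the second array of chalazal endosperm. Without either array of chalazal seed coat, or without a variance trend, it was 4, and it rose to 18 with all 14 arrays and 17 with group means.

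The plastid genome showed the same direction. Of 69 tested plastid-encoded genes 0 rose and 18 fell in the pole effect, against 4.08% and 3.02% of all tested genes. In the endosperm 41 fell and in the seed coat 4, against 15% and 3.59%. All 69 had a negative pole effect, with a median of -0.85. petD, a subunit of the cytochrome b6f complex, had 3673 and 3891 in chalazal and 10896 and 10097 in peripheral endosperm, and 1834 and 2020.4 in chalazal and 4579 and 4818 in general seed coat. It fell in each tissue, with a pole effect of -1.37 (SE 0.23, adjusted p = 0.00756). The ribosomal protein gene rpl36 (-1.11), the photosystem II gene psbH (-1.13) and ndhG (-1.37), a subunit of a plastid dehydrogenase complex, fell as well. Neighbouring plastid genes share transcripts, so these genes are not independent. The count of 18 became 1 without either array of peripheral endosperm, 3 and 4 without the first and the second array of chalazal endosperm and 9 without the first array of chalazal seed coat. It was 12 without the first array of general seed coat, and 3 without a variance trend, and it rose to 29 with all 14 arrays and 28 with group means. Of 15 mitochondrion-encoded genes 0 passed, with a median of 0.12.

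**Figure D5:**
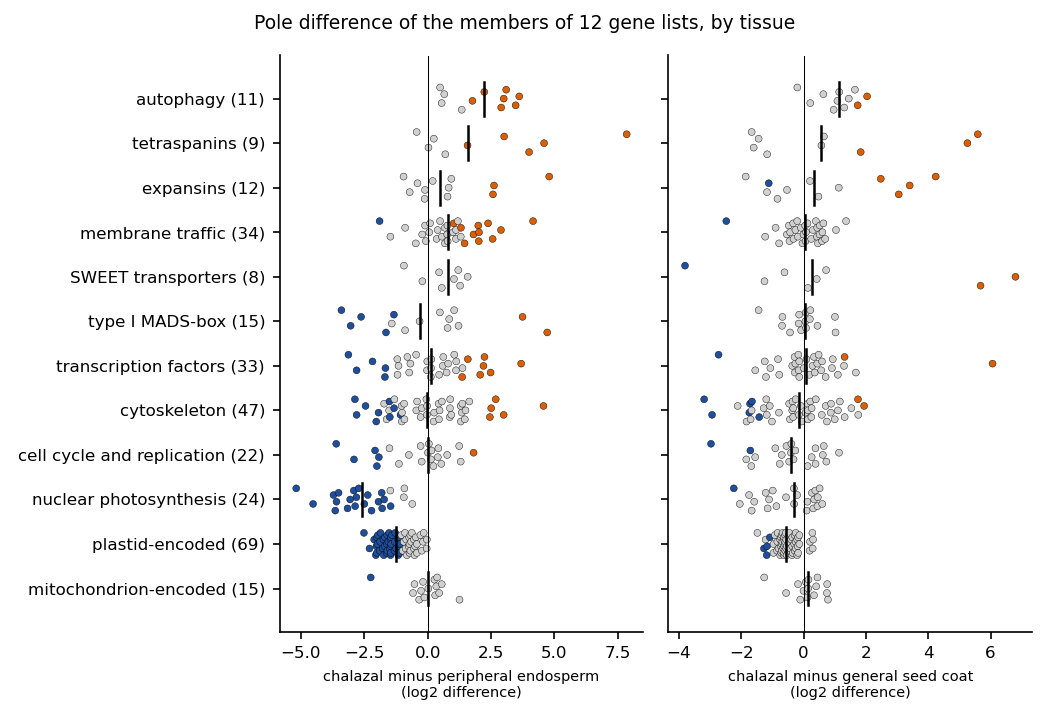
Each dot is 1 gene of a list (number tested in brackets), with its chalazal minus peripheral endosperm difference on the left and its chalazal minus general seed coat difference on the right, in log2 units. Orange dots were called higher and blue dots lower, grey ones passed in neither direction, and the bar is the median of the list. Nuclear photosynthesis genes have a median of -2.60 on the left and -0.31 on the right, and autophagy genes 2.23 and 1.14.

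Some genes of cell division fell at the pole. Of 22 cell cycle and replication genes 0 rose and 4 fell, against 4.08% and 3.02% of all tested genes, with a median of -0.15 over the list. TOPII, topoisomerase II, which untangles chromosomes, had 278 and 258 in chalazal and 1728 and 2896 in peripheral endosperm, and 1057 and 884 in chalazal and 4133 and 2531 in general seed coat. It fell in each tissue, with a pole effect of -2.30 (SE 0.38, adjusted p = 0.0078). KINESIN-12B, a motor of the cell plate, had 178 and 122 in chalazal and 1046 and 516 in peripheral endosperm, and 38.1 and 96.2 in chalazal and 663 and 822 in general seed coat. It fell in each tissue too, with -2.52 (SE 0.45, adjusted p = 0.0103). AUR1, an Aurora kinase (-2.58), and BUBR1, a spindle checkpoint protein (-1.88), passed in the pole effect and in the endosperm alone. The count of 4 was 2 without either array of peripheral endosperm, where AUR1 and BUBR1 were lost. AUR1 was also lost without either array of chalazal endosperm or the second of chalazal seed coat (adjusted p up to 0.0843).

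Of 47 cytoskeleton genes 0 rose and 5 fell, against 4.08% and 3.02% of all tested genes. Without 1 array 1 to 3 fell, the fewest without the second array of peripheral endosperm, and 1 rose without the first array of chalazal or the second of general seed coat. With all 14 arrays or group means 5 rose and 9 or 8 fell. The 5 genes that fell were TRM20, a TON1-recruiting protein (-2.26, SE 0.40, adjusted p = 0.0109), TUA6 (-1.25) and TUB5 (-1.91), subunits of tubulin, ACT11 (-2.04), an actin, and WLIM1 (-1.82), which bundles actin filaments. TRM20 had 10.9 and 8.94 in chalazal and 284 and 313 in peripheral endosperm, and 733 and 795 in chalazal and 2548 and 2410.1 in general seed coat. It fell in each tissue, as did TUA6, from 2332 and 3497 to 1413 and 1275 in the endosperm and from 6471 and 4764 to 2102 and 1998 in the seed coat. TUB5 and WLIM1 each lost their call in 8 of 20 alternative fits and TUA6 in 7 (adjusted p up to 0.111). Arrays whose removal ended these calls included the first of chalazal seed coat, the second of peripheral endosperm and the first of general seed coat for all 3 genes.

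Few genes of membrane traffic, protein turnover and metabolism shared a pole effect. Of 34 membrane traffic genes SEC1B, which acts in vesicle fusion, rose (2.13, SE 0.50, adjusted p = 0.0312) and 0 fell, while in the endosperm alone 11 rose and 1 fell and in the seed coat 0 rose and 1 fell. Over all 9085 tested genes 12.2% rose and 15% fell in the endosperm, and 4.2% rose and 3.59% fell in the seed coat. Of 26 genes of the ubiquitin system UBC30 (1.77) and UBC32 (1.73), ubiquitin-conjugating enzymes, rose. UBC32 had 1036 and 1420.4 in chalazal and 213 and 178 in peripheral endosperm, and 590.2 and 543 in chalazal and 249.9 and 274 in general seed coat. The chalazal arrays of UBC32 lay above the others in each tissue, but only the endosperm difference passed. The calls for SEC1B, UBC30 and UBC32 were each lost without any 1 array of endosperm (adjusted p up to 0.111).

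Of 8 cytochrome P450 genes CYP79A2, which converts phenylalanine to an aldoxime, rose (2.92, SE 0.56, adjusted p = 0.0155), at 28598 and 30797 in the chalazal and 2070.1 and 1872 in the peripheral endosperm. Of 24 UDP-glycosyltransferases UGT73B1 fell in each tissue (-2.33, SE 0.48, adjusted p = 0.0201). Of 5 glutathione transferases GSTU20 rose (3.54, SE 0.95, adjusted p = 0.0453) through the seed coat, at 3729 and 5579 against 63.7 and 5.73. The call for CYP79A2 was lost without the first array of chalazal or either of peripheral endosperm (up to 0.0630). That for UGT73B1 was lost without the first array of peripheral endosperm or the second of general seed coat (up to 0.0532). GSTU20 lost its call in 10 of 20 fits, those without any 1 seed coat array among them (up to 0.102). Of 7 flavonoid and 11 heat shock genes 0 passed in the pole effect. DFR had 3984 and 4314 in chalazal and 1291 and 3087 in peripheral endosperm, and 14558 and 12694 in chalazal and 32225 and 26570.1 in general seed coat. Its pole effect was -0.03, as it rose in the endosperm by 1.04 and had a seed coat difference of -1.10 (adjusted p = 0.061).

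The test of the difference between the tissues called 1221 probe sets (7.52%) as positive and 1343 (8.27%) as negative. The value is the endosperm difference minus the seed coat difference, both signed. A fall at the pole in the seed coat thus counts as positive, and the sign does not tell which tissue changed more. The median of this difference over all tested probe sets was -0.13. At one end stood genes bright in a single compartment. AT3G01880 had 13323 and 21156 in the chalazal endosperm and at most 241 on the other 6 arrays. AT1G30710 had 15707 and 9638 there and AT5G47550 30567 and 45987. Their differences between the tissues were 7.95 (SE 0.80, adjusted p = 9.96e-05), 7.43 and 7.77. AT1G49800 was bright in the general seed coat instead, at 8802 and 9672, and fell at the pole there, with a difference of -7.57. Without 1 array the 2 counts ranged from 642 to 1409 and from 528 to 2050, the lowest of each without the second array of chalazal seed coat and the first of peripheral endosperm.

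At the other end stood genes of the chalazal seed coat. ATSPS4F, a sucrose phosphate synthase, had 36.8 and 45.9 in chalazal and 175 and 223 in peripheral endosperm, and 10829 and 10432 in chalazal and 165 and 163 in general seed coat. It rose in the seed coat by 5.74 and fell in the endosperm, with a difference of -1.60 (SE 0.48, adjusted p = 0.0229), and the tissues differed by -7.34. AT5G54660 had 5841 and 7608 in the chalazal seed coat, LCR68 8964 and 8447 and AT4G20320 2368 and 1803, with seed coat differences of 6.35, 6.82 and 5.78. LCR68, a cysteine-rich peptide, was also bright in the embryo proper, at 7307 and 6561.

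Some genes moved in opposite directions in the 2 tissues. AT2G45840 had 1131 and 955 in chalazal and 7.26 and 28.3 in peripheral endosperm, and 174 and 33.7 in chalazal and 1813 and 1971 in general seed coat. It was high in the chalazal endosperm and in the general seed coat, rose in the endosperm (4.35) and fell in the seed coat (-3.996). AT4G32870 (4.22 and -2.76) and AT2G44210 (2.20 and -4.38) likewise rose in the endosperm and fell in the seed coat. B120 had 9.08 and 15.5 in chalazal and 448 and 574 in peripheral endosperm, and 247 and 423 in chalazal and 29.2 and 7.09 in general seed coat. It fell in the endosperm (-3.50) and rose in the seed coat (2.77), as did AT2G39420 (-3.02 and 2.07). The pole effects of these 5 genes lay between -1.09 and 0.73, and none passed.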

How the data were processed

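Gene expression was measured on 14 single-colour ATH1 arrays of laser-captured seed regions, 2 in each of 7 groups, of which 8 arrays in 4 groups entered the fits. The authors deposited 1 signal intensity per probe set on a linear scale, made with GCOS per the submitters' processing notes (the version is not given in the sources used here). On every array this deposited intensity had a trimmed mean of 500.04 to 500.07 with 2.00% left out at each end, so the arrays were already scaled alike, and a change of the total RNA content would not be seen. No further normalization was applied.

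Of 22810 probe sets, 64 controls were left out. The value 35.8914, the 25th percentile of all signals, was added before taking log2, and tests were run on the 16244 probe sets that exceeded the 40th percentile of the array on both replicates of some group. The pole effect came from an additive model of pole and tissue (5 residual degrees of freedom) in limma 3.58.1 under R 4.3.3, with moderated variances and a trend. The differences within endosperm and within seed coat and their difference came from a model of group means on the same arrays (4 residual degrees of freedom). Calls required a Benjamini-Hochberg adjusted p under 0.05 and at least 2-fold. The additive effect can be called where only 1 tissue moved, so the difference between the tissues was tested beside it. In data simulated for the pole effect over 16244 probe sets, 4.48% of 2-fold, 59.7% of 4-fold and 95.5% of 8-fold changes and 0.0125% of unchanged probe sets were called. How often a pole effect that differs between the tissues would be called was not tested. In the measured data such a difference was called for 1221 probe sets as positive and 1343 as negative. The simulation held no such difference in any probe set and gave all groups of a probe set the same spread. Moderated variances draw on all probe sets, so the shares above belong to the simulated setting only. With 2 arrays per group the number of arrays limits the precision.

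Genes were named from the platform annotation (13513 probe sets with 1 gene, 503 with several, 8730 with none), with symbols updated from the TAIR10.1 gene table where the gene ID matched (13436). A gene was represented by its probe set of highest mean. The genes named were the 12 largest increases and 10 largest decreases of the pole effect among called genes with arrays apart in each tissue, the 5 largest differences between tissues each way, up to 3 genes called opposite ways in each direction, up to 4 called members of each of 31 gene lists, the markers, and all tetraspanins, SWEET, type I MADS-box and cytokinin genes. The comparison and the lists were chosen with earlier results of these data known. Alternatives were quantile normalization, median centring, other added values and filters, no variance trend, group means, all 14 arrays, a replicate block and leaving out each array. Tables and figures were made with Python 3.11.15, pandas 2.3.3 and matplotlib 3.10.9.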

Additional observations from a re-analysis of the deposited data

Results flagged for a closer look

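For 52 of the 131 named genes the pole difference of the endosperm and that of the seed coat were not the same by the test of the difference itself (limma, adjusted p under 0.05 and at least 2-fold). The values are the endosperm difference minus the seed coat difference in log2 units. It was above 0 for AT2G45840 (8.35), AT1G49800 (8.08), AT3G01880 (7.95), AT5G47550 (7.77), AT1G30710 (7.43), TET4 (7.19), SBT4.13 (7.0), AT4G32870 (6.97), AT2G42100 (6.63), AT2G44210 (6.59), AT3G03410 (6.43) and AT2G15325 (5.41). Smaller values above 0 were found for AGL41 (4.85), SWEET1 (4.84), TET3 (4.62), TBL43 (4.59), LCR72 (4.27), RALFL28 (3.90), AGL91 (3.54), GH9B17 (3.36), INO (3.18), GH9B11 (2.88), TET15 (2.74) and AT5G26630 (2.62). Smaller values above 0 were found for BGLU40 (2.55), SWEET2 (2.53), AT3G05860 (2.52), GILT (2.38), TET8 (2.17), ATG8G (2.16), DFR (2.14) and UBC30 (2.09).

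It was below 0 for RR22 (-7.37), ATSPS4F (-7.34), AT5G54660 (-7.11), LCR68 (-6.99), AT4G20320 (-6.72), B120 (-6.27), SWEET10 (-5.59), TET5 (-5.56), HAT2 (-5.26), GSTU20 (-5.23) and AT2G39420 (-5.09). Closer to 0, but still below it, were SWEET4 (-4.10), AT2G37540 (-3.93), EXPA4 (-3.30), BGLU33 (-3.29), AGL46 (-2.97), AGL29 (-2.96), BETA-VPE (-2.78), MTP11 (-2.16) and LPR1 (-2.07). Groups of 2 arrays are too small for a test of single outlying arrays.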

How the results depend on the processing

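Of the 76 named genes called in the pole effect 34 kept that call under all of up to 20 alternatives, and of the 55 not called 20 gained one under some alternative, 14 of them only with all 14 arrays or group means. No called pole effect, tissue difference or difference between tissues of a named gene changed sign under the alternatives run per probe set. Quantile normalization gave 641 higher and 554 lower probe sets in the pole effect and median centring 586 and 611. Fitting all 14 arrays gave 1759 and 2064, and the model of group means 1758 and 1969. Both of these fits test the mean of both tissue differences against the spread within groups. In these 2 fits autophagy had 7 higher calls, and expansins 6 and 4. Without a variance trend 353 were lower. With no added value 327 were lower in the pole effect, the seed coat gave 354 and 338, the differences between tissues 652 and 680, lower calls in each tissue were 76, and opposite calls 27 and 10. Without a filter, opposite calls were 39 and 17. Without the probe sets whose effect differed between the tissues, an alternative chosen after seeing the data, 418 were higher.

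Leaving out 1 array at a time gave 191 to 508 higher and 101 to 430 lower probe sets in the pole effect, 1149 to 1915 and 1352 to 2839 in the endosperm and 360 to 923 and 285 to 932 in the seed coat. The difference between tissues gave 642 to 1409 and 528 to 2050, calls in each tissue 109 to 271 higher and 40 to 223 lower, and opposite calls 22 to 74 and 6 to 51. Where a group is left with 1 array, that array is assumed to vary like the other groups.

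With the replicate number as a replicate block, the pole effect gave 351 higher and 259 lower calls, all of them among the 642 and 544, with 5 lower calls for plastid-encoded, 5 for nuclear photosynthesis and 2 for cytoskeleton genes. Same-numbered arrays of different groups did not deviate together (correlations of -0.0294 to 0.0445). With 2 arrays per group this cannot tell whether same-numbered samples were paired. Signals under the added value of 35.9 limit the size of the largest differences.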

Other observations

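Within the endosperm 11 of 34 tested membrane traffic genes rose at the pole and 1 fell, against 12.2% and 15% of all tested genes. A few single genes are given here that were chosen after their values were seen. BZIP60, a transcription factor of the unfolded protein response, had signals of 3334 and 3328 in the chalazal and 171 and 294 in the peripheral endosperm, a difference of 3.69 (adjusted p = 7.07e-05, limma). In the seed coat its difference was 0.01, and the tissues differed by 3.68 (adjusted p = 0.00257). BZIP28, a membrane-bound factor of the same response, had an endosperm difference of 2.48, and the tissues differed by 2.04 (adjusted p = 0.0342). SEC22, a SNARE between endoplasmic reticulum and Golgi, reached 13072 and 15472 in the chalazal against 1839 and 3070.4 in the peripheral endosperm, with a difference of 2.56, and the tissues differed by 2.50 (adjusted p = 0.00551).

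Of 11 tested auxin genes, 2 rose in the seed coat, against 4.2% of all tested genes. WES1, which conjugates auxin to amino acids, had 309 and 371 in the chalazal and 25.4 and 4.49 in the general seed coat, a difference of 2.91 (adjusted p = 0.0016, limma), and the tissues differed by -2.71 (adjusted p = 0.0172). GH3.9, of the same family, rose by 2.64 (adjusted p = 0.0149), while its difference between the tissues of -2.36 did not pass (adjusted p = 0.0806). Signals of both genes in the endosperm were at most 100.2.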
